A study of Mus musculus with 20 samples.

Results

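The 46 genes described here encode the enzymes that make, use and restore glutathione and the other enzymes that remove peroxides and superoxide, together with the transcription factor Nfe2l2 (NRF2) and its inhibitor Keap1. They were chosen by name from knowledge of these pathways, with earlier results of these data known. All 46 were found by symbol among the 55487 gene identifiers of the count files. The genes were measured in mural granulosa cells (GCs), which form the inner layer of the wall of antral follicles, of 20 female mice. Of these, 5 were ctrl mice in estrus, 5 FL1 mice in estrus, 5 ctrl mice in diestrus and 5 FL1 mice in diestrus. FL1 is a Dummerstorf line that was selected for litter traits for more than 200 generations, and ctrl is the unselected line bred from the same founders, so that a difference between the lines is a difference between 2 closed populations and not the effect of a single allele. The mice were 77 ± 5 days old, the stage was read from vaginal smears, and the cells came from 7 to 10 of the largest follicles per mouse, with oocyte and cumulus removed. A sample is 1 mouse.

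Glutathione is a tripeptide that is assembled by glutamate-cysteine ligase (subunits Gclc and Gclm) and glutathione synthetase (Gss). Glutathione peroxidases oxidize it to reduce peroxides, glutathione reductase (Gsr) restores it with NADPH, and glutathione transferases couple it to reactive lipids, drugs and steroid intermediates. Peroxiredoxins remove peroxides with electrons from thioredoxin (Txn1), which thioredoxin reductase (Txnrd1) recharges. Superoxide dismutases turn superoxide into hydrogen peroxide, which catalase breaks down. NRF2 binds the antioxidant response element (ARE) in the promoters of many of these genes and is held in check by Keap1. In the follicle, reactive oxygen arises from mitochondrial steroid synthesis and at ovulation, and glutathione transferases of the alpha class are known for their abundance in steroid-producing cells.

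Between 5446576 and 8257041 counts per mouse fell on genes, and the members took 0.434% to 0.739% of them. Values are given as CPM, the counts of a gene relative to the library size, with library sizes scaled by TMM over all 20 samples. Libraries were made from the 3′ end of transcripts, so counts do not grow with transcript length. The levels of different genes can thus be set side by side on the CPM scale, with a limit. Reads that matched several places were left out, so the 13 members with near-identical copies, Sod1 and Prdx1 among them, may be undercounted. Of 10 GC markers none was at 0 throughout a group, although Amh (anti-Müllerian hormone) was near 0 in most mice in diestrus. Inha (inhibin alpha) was found at 2725 to 7880 CPM. The summed level of the 10 was 7887 to 16176 CPM in FL1 mice in estrus and 15044 to 22327 CPM in ctrl mice in diestrus. Markers of other cells were present too. Of the theca markers, Insl3 had at most 0.182 CPM in any sample, but Cyp17a1 reached 233 CPM in a ctrl mouse in diestrus and Ptch1 lay between 32.2 and 115.8 CPM. Summed markers lay between 55.6 and 535 CPM for oocytes, 72.5 and 1174 CPM for stroma, 64.0 and 1167 CPM for smooth muscle and 47.8 and 1625 CPM for red blood cells, and at or below 13.5 CPM for cumulus cells. In such bulk samples fewer cells of a type and less RNA per cell cannot be told apart.

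The promoters were searched for the core of the ARE, since NRF2 is the best known regulator of these genes. The search used RefSeq promoters of GRCm38.p6, from 250 bases before to 50 bases after the start, on both strands for TGACNNNGC or GCNNNGTCA. A promoter was given for 38 of the 46 members, and 9 of the 38 (23.7%) held the core, against 14.0% of 27025 genes with a promoter. The 9 sites are shown 5′ to 3′ on the strand of the gene, with the 9 bases of the core in capitals and 10 bases on either side, since they are what the search found in the members' promoters.
Gclm, core starting at -134: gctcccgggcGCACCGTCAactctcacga
Gsta3, core starting at -121: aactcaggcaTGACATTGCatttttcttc
Gstm5, core starting at -42: caccgcccacTGACCACGCggagggcggg
Gstm7, core starting at -129: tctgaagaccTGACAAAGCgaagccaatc
Mgst1, core starting at -56: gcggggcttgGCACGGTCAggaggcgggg
Nfe2l2, core starting at -240: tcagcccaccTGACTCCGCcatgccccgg
Prdx1, core starting at -133: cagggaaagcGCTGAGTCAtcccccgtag
Sod1, core starting at -56: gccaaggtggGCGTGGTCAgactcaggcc
Txnrd1, core starting at -92: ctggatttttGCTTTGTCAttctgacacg

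Positions count from the start of the RefSeq transcript to which the promoter belongs. The cores of Gstm7, Mgst1 and Txnrd1 lay inside the annotated gene model, ahead of an inner transcript start, and the other promoters of these genes in the table held none. The site of nuclear receptors of the NR5A family (CAAGGTCA or TGACCTTG), which regulate steroid-producing cells, was found in the promoters of 0 of the 38 members and in 1.76% of the 27025 genes. A match of letters is a description of the window and not a measured site of binding. Of the 4 members called in a comparison below, Vnn1 and Sod3 had no promoter in the table, and neither motif was found for Mgst2 and Gstm1. The 250 bases before the start of the latter pair are printed as the sequences at hand for called members, and those of Mgst2 lie within the longer gene model of the annotation.
Mgst2, chr3:51660929-51661178, plus strand: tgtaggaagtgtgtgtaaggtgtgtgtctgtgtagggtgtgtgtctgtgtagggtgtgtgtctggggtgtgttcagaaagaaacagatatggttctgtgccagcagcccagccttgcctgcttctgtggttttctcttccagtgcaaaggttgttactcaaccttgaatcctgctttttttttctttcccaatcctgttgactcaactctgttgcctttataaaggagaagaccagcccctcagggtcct
Gstm1, chr3:108017974-108018223, minus strand: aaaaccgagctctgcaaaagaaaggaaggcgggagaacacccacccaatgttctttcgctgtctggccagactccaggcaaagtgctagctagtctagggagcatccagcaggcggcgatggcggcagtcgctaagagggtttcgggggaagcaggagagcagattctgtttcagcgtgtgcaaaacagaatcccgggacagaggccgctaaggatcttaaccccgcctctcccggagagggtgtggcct

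The levels of the members spanned from 0.305 CPM for Gsta1 to 889 CPM for Sod1 as means over all 20 samples (plot of the level of every member). Above 500 CPM there were 3 members, 13 lay between 100 and 500 CPM, 20 between 10 and 100 CPM, and 10 at or below 10 CPM. Sod1, the cytosolic superoxide dismutase on chromosome 16, had the highest mean. Its level was 835, 871, 728, 853 and 1095 CPM in the ctrl mice in estrus, 866, 977, 782, 1295 and 759.8 CPM in the FL1 mice in estrus, 724, 765, 956, 1222 and 717 CPM in the ctrl mice in diestrus and 1197, 839, 737, 653 and 909 CPM in the FL1 mice in diestrus. All 4 groups overlapped, and the log2 fold change of FL1 against ctrl was 0.09 ± 0.19 (SE) in estrus and -0.01 ± 0.21 (SE) in diestrus, with 95% intervals (from the t distribution with the residual degrees of freedom of the samples) of -0.34 to 0.53 and -0.50 to 0.48.

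Txn1, the cytosolic thioredoxin, was the third in the order of levels. It was found at 513, 441, 506, 505 and 784 CPM in ctrl mice in estrus and 790.2, 546, 629, 322 and 657 CPM in FL1 mice in estrus. In diestrus it was found at 339, 537, 576, 647 and 412 CPM in ctrl mice and 792, 686, 461, 415 and 727 CPM in FL1 mice. The groups overlapped at both stages. The means of Prdx1, the second in that order, and Txn1 were 568 and 564 CPM, a difference well within the spread between mice.

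**Figure D1:**
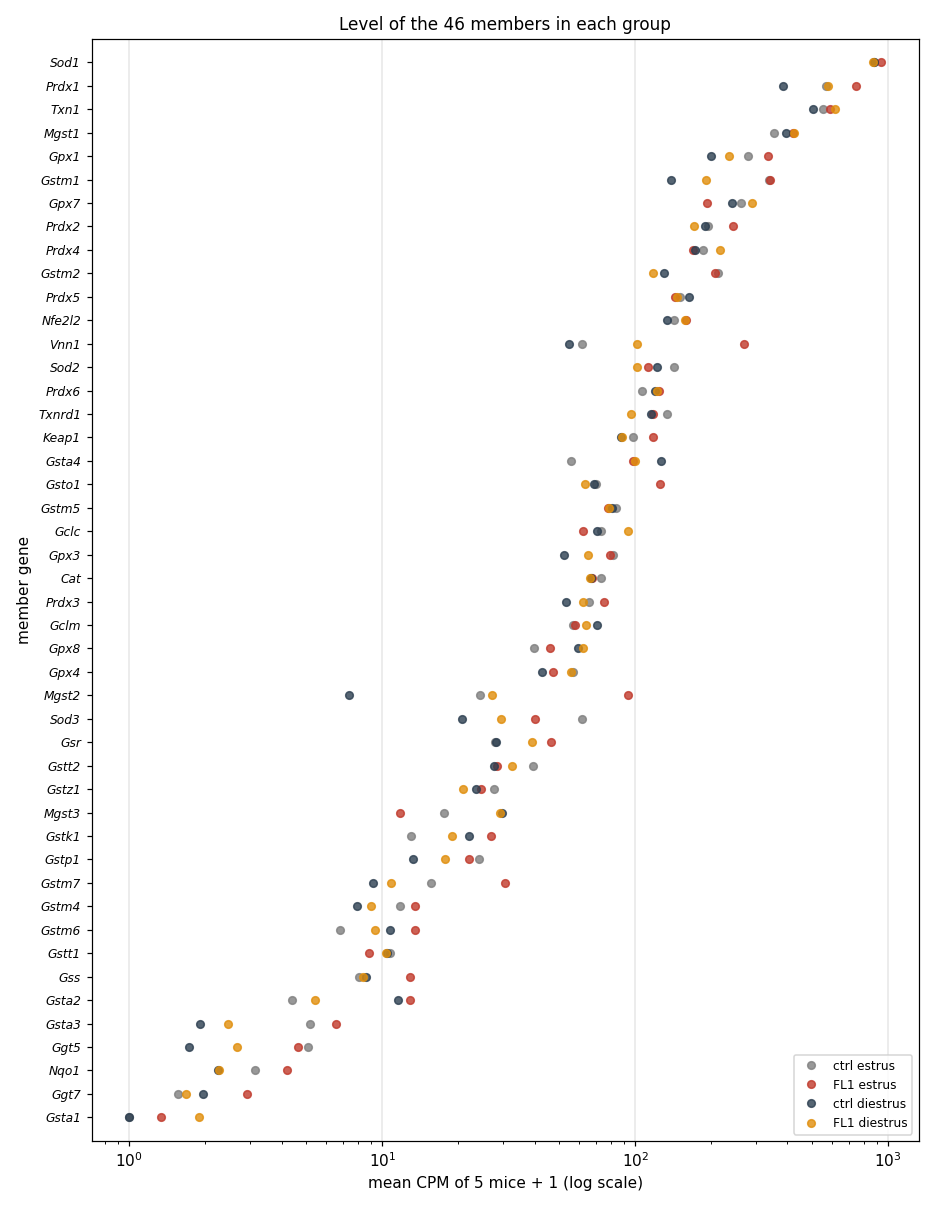
Mean CPM of 5 mice plus 1, on a log axis, for the 46 members in the order of their mean over all 20 samples, with 1 point for each of the 4 groups. Sod1, Prdx1 and Txn1 lead, Gsta1 is last, and the points of a member mostly lie close together beside the distance between members, with Vnn1 and Mgst2 as wide exceptions.

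The roles differed strongly in level. The 8 peroxiredoxin and thioredoxin genes together gave 1653 to 2462 CPM in ctrl mice in estrus, while the 7 genes of glutathione synthesis and turnover gave 185 to 260.0 CPM in the same mice. Among the transferases, the microsomal Mgst1 was highest at 397 CPM, followed by the mu class Gstm1 at 252 CPM and Gstm2 at 166 CPM. Of the alpha class, Gsta4, which clears products of lipid peroxidation, reached 94.1 CPM, but Gsta1, Gsta2 and Gsta3 stayed at 0.305, 7.58 and 3.02 CPM. Gsta1 was listed with counts in 2 of 20 mice only, with 10 counts in 1 FL1 mouse in estrus and 32 counts in 1 FL1 mouse in diestrus. Gsta1 and Gsta2 are near-identical over their 3′ ends to each other and to further copies, and reads that match several places were left out of the counts, so their levels are uncertain. Nqo1, a standard NRF2 target, was also low at 1.964 CPM, whereas Nfe2l2 itself was at 147 CPM and Keap1 at 97.01 CPM.

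Which members differ between the high-fertility line and ctrl was asked first in estrus. Vnn1, the pantetheinase that releases cysteamine and thereby acts on glutathione stores, was the single member that passed the test, and it was 4.38-fold higher in FL1 mice. By edgeR's quasi-likelihood test with Benjamini-Hochberg adjustment over all 13007 genes tested, 1 of 44 tested members was higher and 0 were lower, while 0.769% of all genes were called (0.415% higher and 0.354% lower). Gsta1 and Ggt7 were too low to be tested. The microsomal transferase Mgst2 can make leukotriene C, and the omega transferase Gsto1 reduces dehydroascorbate. Both had all 5 FL1 mice above all 5 ctrl mice but missed the threshold. Vnn1, Mgst2 and Gsto1 had been reported as higher in FL1 mice from these same samples before. Their direction here is thus no independent evidence.

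Vnn1 (chromosome 10, 23894688 to 23905343, plus strand) was measured in estrus at 54.6, 56.7, 71.4, 57.1 and 64.7 CPM in ctrl mice and at 208, 606, 106.8, 222 and 194 CPM in FL1 mice. Every FL1 mouse was above every ctrl mouse, and the FL1 mouse with replicate number 2 was far above the other 4. The means were 60.9 ± 6.98 CPM and 267 ± 195 CPM (SD, n = 5 each), the log2 fold change was 2.13 ± 0.34 (SE) and the adjusted p of edgeR was 0.00415. Without the FL1 mouse with replicate number 2 the log2 fold change was 1.58 with an adjusted p of 0.00162.

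Mgst2 (chromosome 3, 51660360 to 51682677, plus strand) was found in estrus at 4.09, 18.0, 15.3, 43.7 and 35.7 CPM in ctrl mice and at 82.8, 190.5, 65.8, 71.5 and 53.6 CPM in FL1 mice. The ctrl mice alone spanned about an order of magnitude, and the groups did not overlap. The log2 fold change was 1.99 ± 0.47 (SE), a 3.97-fold difference, with an adjusted p of 0.0583 in edgeR, and DESeq2 gave 0.00589. The FL1 mouse with replicate number 2 was again the highest, and without it the log2 fold change was 1.55 with an adjusted p of 0.169.

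Gsto1 (chromosome 19, 47854970 to 47864790, plus strand) was found in estrus at 62.4, 74.0, 73.8, 56.7 and 77.4 CPM in ctrl mice and 101.2, 198, 104.9, 104.96 and 113.1 CPM in FL1 mice. The ctrl mice lay close together, 4 of the FL1 mice lay just above 100 CPM, and the same FL1 mouse as before was highest. FL1 mice differed by 0.85 ± 0.22 (SE) on the log2 scale, with an adjusted p of 0.0855 in edgeR and 0.0124 in DESeq2. Together, 3 of 44 members had FL1 mice above ctrl mice without overlap, against 1.85% of all genes in that direction. An unadjusted p under 0.05 was found for 8 of 44 members (18.2%), 7 of them higher and 1 lower in FL1 mice, against 10.7% of all genes (5.47% higher and 5.22% lower).

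**Figure D2:**
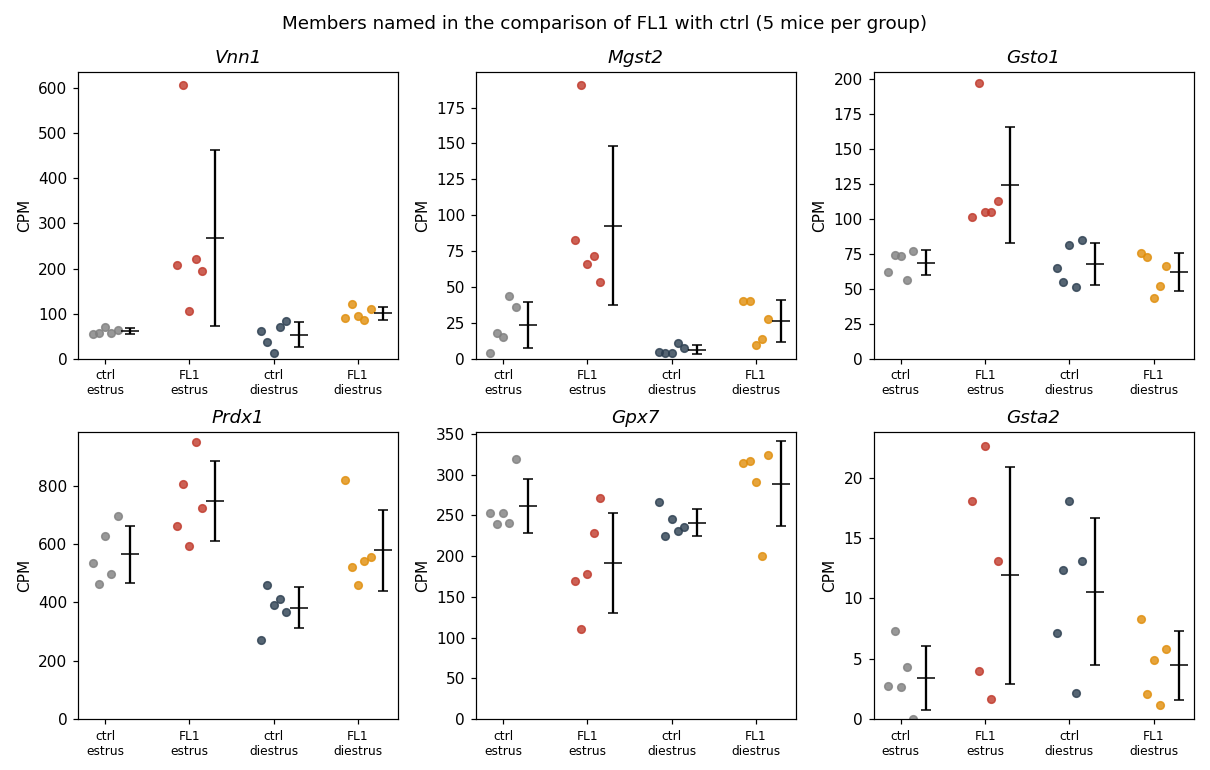
CPM of 6 members in every mouse (points, from left to right replicate 1 to 5) of the 4 groups, with the group mean and SD (bars, n = 5) beside them, on linear axes from 0. The means of Vnn1 and Mgst2 were higher in FL1 mice at both stages, that of Gsto1 in estrus, and the FL1 mouse in estrus with 606 CPM of Vnn1 was also the highest of its group for Mgst2 and Gsto1.

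The other members with an unadjusted p under 0.05 in estrus did not pass the adjusted test. Glutathione reductase, Gsr, was 26.9 ± 10.6 CPM in ctrl mice and 45.7 ± 16.99 CPM in FL1 mice (SD, n = 5), with a log2 fold change of 0.76 ± 0.32 (SE) and an adjusted p of 0.372 in edgeR. The mitochondrial and peroxisomal transferase Gstk1 had a log2 fold change of 1.10 ± 0.42 (SE) and the mu class Gstm7 one of 1.02 ± 0.48 (SE), with adjusted p-values of 0.305 and 0.463 in edgeR. Sod3, the extracellular superoxide dismutase, went the other way, with a log2 fold change of -0.63 ± 0.29 (SE) and an adjusted p of 0.45. Of the other superoxide dismutase and catalase genes, Sod2 and Cat gave -0.35 and -0.12, and Sod1 gave 0.09.

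By role, the median log2 fold change in estrus lay between -0.23 for superoxide dismutases and catalase and 0.38 for glutathione synthesis and turnover. Of the former 1 gene was higher and 3 lower, and of 6 tested genes of the latter 4 were higher and 2 lower. Of 15 tested transferases listed as cytosolic, with Gstk1 counted among them, 9 were higher and 6 lower in FL1 mice in estrus. Of 5 glutathione peroxidases 2 were higher and 3 lower, and of 8 peroxiredoxin and thioredoxin genes 5 were higher and 3 lower. The 3 NRF2 pathway genes had log2 fold changes of 0.15 for Nfe2l2, 0.26 for Keap1 and 0.58 for the low Nqo1, and 0 of them were called. The rate-limiting subunits Gclc and Gclm gave -0.24 and 0.02. Over the 44 members the median log2 fold change was 0.12, and over all genes tested it was 0.0054.

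In diestrus the same question gave no member that passed the test. In edgeR 0 of 41 tested members were called, with 0.248% of all 12886 genes called. There were 3 members with an unadjusted p under 0.05, all higher in FL1 mice, beside 5.56% of all genes (3.09% higher), and DESeq2 called 1, Mgst2. Gsta1, Gsta3, Ggt5, Ggt7 and Nqo1 were too low to be tested at this stage. The 3 members were Mgst2, Prdx1 and Vnn1.

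Mgst2 in diestrus was found at 4.65, 4.29, 4.15, 11.3 and 7.64 CPM in ctrl mice and 40.3, 40.4, 9.42, 13.5 and 27.5 CPM in FL1 mice. Only the lowest FL1 mouse fell within the range of ctrl mice. This gave a log2 fold change of 2.04 ± 0.49 (SE), a 4.12-fold difference, with an adjusted p of 0.152 in edgeR and 0.00833 in DESeq2.

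Prdx1 (chromosome 4, 116685544 to 116700822, plus strand), an abundant peroxiredoxin whose ARE core is shown above, was found in diestrus at 272, 461, 393, 413 and 369 CPM in ctrl mice and 819, 520.3, 461, 541 and 555 CPM in FL1 mice. The groups did not overlap, although the lowest FL1 mouse and the highest ctrl mouse were almost level, and the FL1 mouse with replicate number 1 stood above the rest. On the log2 scale the difference was 0.61 ± 0.20 (SE), with an adjusted p of 0.539 in edgeR. In estrus it was found at 537, 464, 629, 496 and 698 CPM in ctrl mice and 661, 807, 594, 951 and 725 CPM in FL1 mice, which overlapped, with a log2 fold change of 0.40 ± 0.18 (SE) and an adjusted p of 0.442. Processed copies of Prdx1 elsewhere in the genome held 0.0276% as many counts as the gene itself. The closest matched its 3′ end at 98.5% over 412 nt. Reads that matched both were left out, so this share does not show how many reads Prdx1 lost.

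Vnn1 in diestrus was found at 62.1, 38.0, 13.5, 70.5 and 83.5 CPM in ctrl mice and 90.8, 121, 93.9, 86.7 and 109.6 CPM in FL1 mice. All FL1 mice were above all ctrl mice, as in estrus. The log2 fold change was 0.91 ± 0.35 (SE) with an adjusted p of 0.728 in edgeR. With Prdx1 and Vnn1, 2 of 41 members had FL1 mice above ctrl mice without overlap in diestrus, against 0.823% of all genes. Over the 41 members the median log2 fold change was 0.07, with 23 higher and 18 lower. It ranged from -0.09 to 0.18 when single mice were left out, so its sign was not stable.

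**Figure D3:**
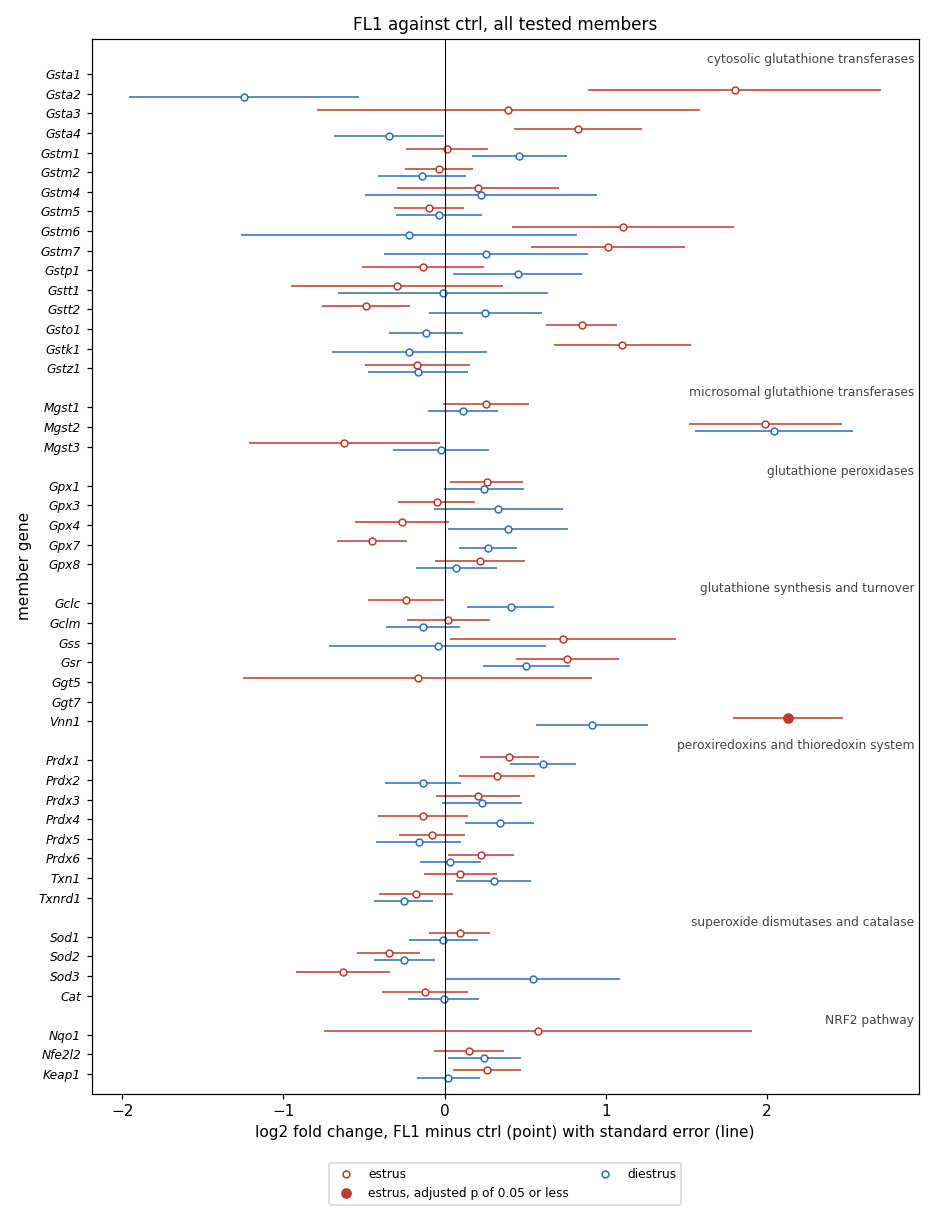
Log2 fold change of FL1 against ctrl for every tested member, ordered by role, in estrus (red) and diestrus (blue), with the standard error as a line. The filled point is Vnn1 in estrus, the single called value, and Mgst2 lies near 2 at both stages while most members lie within 0.5 of zero.

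Over both stages together, with the stage as a term of the model, 2 of 45 tested members were called and both were higher in FL1 mice, while 1.21% of all 14938 genes were called (0.669% higher). Mgst2 had a log2 fold change of 2.01 ± 0.34 (SE), a 4.04-fold difference, with an adjusted p of 0.00107 in edgeR. Vnn1 had 1.52 ± 0.29 (SE), a 2.88-fold difference, with an adjusted p of 0.00285. Both calls remained when any of the 20 mice was left out. Prdx1 came next with 0.50 ± 0.14 (SE) and an adjusted p of 0.0641, and it was called by DESeq2 with 0.00426. Gsr gave 0.63 ± 0.21 (SE) with an adjusted p of 0.169, and the mitochondrial Sod2 gave -0.30 ± 0.13 (SE) with an adjusted p of 0.365 in edgeR. Of the 45 members 32 were higher and 13 lower, with a median of 0.16 beside 0.011 over all genes.

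Whether the difference between the lines itself differed between the stages was tested as an interaction. In edgeR 0 of 45 members were called, as were 0 of all 14938 genes (0.0%). There were 5 members with an unadjusted p under 0.05 beside 4.75% of all genes, and DESeq2 also called 0 members. The lowest p was that of Gsto1 at 0.00455, with an interaction of -0.98 ± 0.32 (SE) and an adjusted p of 0.933. Gsto1 in diestrus was found at 65.3, 54.9, 81.4, 51.6 and 84.7 CPM in ctrl mice and 75.8, 73.1, 43.2, 52.3 and 66.2 CPM in FL1 mice, which overlapped throughout. For Vnn1 the interaction was -1.22 ± 0.51 (SE) with an unadjusted p of 0.0236, and for Mgst2 it was 0.05 ± 0.65 (SE) with a 95% interval of -1.33 to 1.42.

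Gpx7, a peroxidase of the endoplasmic reticulum, and Gsta2 had the next lowest p-values in the interaction. Gpx7 was found at 253, 239.8, 253, 241 and 319 CPM in ctrl mice and 169, 111.1, 178, 228 and 272 CPM in FL1 mice in estrus, and at 267, 225, 246, 231 and 236 CPM and 314, 317, 291, 199.6 and 325 CPM in diestrus. In estrus 4 of the 5 FL1 mice were below all ctrl mice, whereas in diestrus 4 of the 5 FL1 mice were above all ctrl mice. The interaction was 0.71 ± 0.28 (SE) with an adjusted p of 0.982. Gsta2 was found at 2.78, 7.30, 2.64, 4.28 and 0 CPM in ctrl and 18.1, 4.01, 22.7, 1.69 and 13.1 CPM in FL1 mice in estrus, and at 7.16, 12.3, 18.1, 2.19 and 13.1 CPM and 8.28, 2.06, 4.87, 1.20 and 5.81 CPM in diestrus. All of its groups overlapped, and the interaction was -3.05 ± 1.19 (SE) with an adjusted p of 0.982 in edgeR. Copies of Gsta2 held 27.4% as many counts as the gene itself, which leaves its level uncertain.

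Markers of other cell states moved with the line, and their values stand here beside the results of Vnn1, Mgst2 and Gsto1. All 7 markers of luteinizing or luteal cells were higher in FL1 mice in estrus, 4 of them called, and their summed level was 2587 to 5854 CPM in ctrl mice and 8197 to 11422 CPM in FL1 mice without overlap. These markers had been reported from these same samples before, so their counts are no independent evidence of their direction. In diestrus the same 7 were higher, 2 of them called, with sums of 2247 to 6679.7 CPM in ctrl mice and 4276 to 7754 CPM in FL1 mice. The progestin-degrading enzyme Akr1c18 ranged from 39.2 to 184 CPM in ctrl and from 626 to 3589 CPM in FL1 mice in estrus. The sum of the 9 leukocyte markers was 19.3 to 44.1 CPM in ctrl mice and 44.1 to 108.8 CPM in FL1 mice in estrus, and that of the 4 surface epithelium markers 3.21 to 18.2 CPM and 20.8 to 56.3 CPM. The sum of the 5 theca markers was 255 to 538 CPM and 580.1 to 2568 CPM, where the highest value belonged to the FL1 mouse with the highest Vnn1, Mgst2 and Gsto1. Most of that value was Fdx1 (ferredoxin of steroid synthesis, itself called higher) at 2475 CPM, whereas Insl3 was at 0 in all FL1 mice in estrus and Cyp17a1 at most at 19.2 CPM. Over both stages all 8 tested leukocyte markers were higher in FL1 mice, 1 of them called (median log2 fold change 1.88), as were all 5 endothelium markers (median 1.08) and all 5 stroma markers (median 0.88) with 0 called. In diestrus all 4 tested red blood cell markers (median 1.61), 4 leukocyte markers (1.66), 5 stroma markers (1.24) and 5 endothelium markers (0.71) were higher with 0 called. The part of these markers in the results was not tested.

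Stages were compared within each line between separate mice, and these comparisons use the samples of the comparisons of the lines again. In ctrl mice the members were mostly lower in diestrus, and 2 of 42 tested members passed the test, both lower, with 1.36% of all 12850 genes called (0.576% lower). These were Gstm1, a mu class transferase, and Sod3, the extracellular superoxide dismutase. Of the 42 members 30 were lower and 12 higher, with a median log2 fold change of -0.13 beside 0.0041 over all genes. An unadjusted p under 0.05 was found for 11 of them (26.2%), 8 lower and 3 higher, against 11.8% of all genes (5.85% lower and 5.91% higher).

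Gstm1 (chromosome 3, 108012255 to 108017973, minus strand), whose upstream sequence is printed above, was found in ctrl mice at 206, 332, 428, 352 and 372 CPM in estrus and 119, 185, 221, 87.5 and 77.1 CPM in diestrus. The groups overlapped only through the lowest mouse in estrus and the highest in diestrus. The means were 338 ± 82.0 CPM and 138 ± 62.9 CPM (SD, n = 5), and the log2 fold change of diestrus against estrus was -1.30 ± 0.28 (SE) with an adjusted p of 0.0299 in edgeR. In FL1 mice it was found at 258, 288, 419, 544 and 199.98 CPM in estrus and 292, 185, 160.4, 171 and 136 CPM in diestrus, with a log2 fold change of -0.86 ± 0.28 (SE) and an adjusted p of 0.236. The neighbouring Gstm2 had -0.72 in ctrl and -0.84 in FL1 mice, neither called. The copies of Gstm1 held 0.152% as many counts as the gene, which does not show how many of its reads were left out for matching a copy.

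Sod3 (chromosome 5, 52363791 to 52371418, plus strand) was found in ctrl mice at 32.4, 40.6, 88.8, 70.1 and 71.0 CPM in estrus and 19.5, 33.4, 26.2, 8.02 and 10.99 CPM in diestrus. A single ctrl mouse in diestrus overlapped with the lowest in estrus. The log2 fold change was -1.63 ± 0.39 (SE), a 3.09-fold difference, with an adjusted p of 0.047 in edgeR. In FL1 mice Sod3 was found at 30.4, 29.8, 55.2, 44.7 and 35.7 CPM in estrus and 69.7, 32.3, 6.34, 12.6 and 21.9 CPM in diestrus, where 1 mouse was at 69.7 CPM and the groups overlapped. The log2 fold change in FL1 mice was -0.46 ± 0.47 (SE) with an adjusted p of 0.859, and the interaction of line and stage was 1.17 ± 0.64 (SE) with an unadjusted p of 0.0787 in edgeR. In ctrl mice the 5 stroma markers had sums of 386 to 861 CPM in estrus and 99.8 to 492 CPM in diestrus, which overlapped. All 5, with Dcn and collagens, were lower in diestrus with 0 called (median log2 fold change -1.34). Of 4 tested theca markers 1 was called higher and 3 were lower. Of 7 luteal markers 4 were lower, 1 of them called, and 3 were higher. The leukocyte sums of 19.3 to 44.1 CPM in estrus and 7.69 to 18.0 CPM in diestrus did not overlap, all 4 tested endothelium markers were lower with 0 called (median -0.65), and 7 of 10 GC markers were higher with 1, Fshr, called. Their part in the results of Gstm1 and Sod3 was not tested.

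Both calls in ctrl mice depended on single libraries. Gstm1 lost its call when any of ctrl mice 2, 3, 4 or 5 in estrus or 1, 4 or 5 in diestrus was left out, with adjusted p-values from 0.0215 to 0.0839 over the 10 omissions. Sod3 remained called in 2 of the 10, without ctrl mouse 1 in estrus and without ctrl mouse 2 in diestrus, with adjusted p-values from 0.0255 to 0.138. Over all genes the 10 omissions gave 77 to 176 calls. The log2 fold change of either gene stayed negative in all 10, between -1.53 and -1.14 for Gstm1 and between -1.90 and -1.43 for Sod3.

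Other members with an unadjusted p under 0.05 in ctrl mice were Mgst2 (-1.88), Prdx1 (-0.57), Gstm2, Gpx1 (-0.50), Gpx3 (-0.67) and Gstp1 (-0.93), lower in diestrus, and Gsta4 (1.19), Mgst3 (0.79) and Gpx8 (0.59), higher in diestrus, as log2 fold changes. Prdx1 was the single one of these whose ctrl groups did not overlap, which is 1 of 42 members against 1.84% of all genes in that direction. Gsta4 conjugates aldehydes of lipid peroxidation, and its mean was 54.8 ± 33.5 CPM in estrus and 126 ± 60.9 CPM in diestrus.

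**Figure D4:**
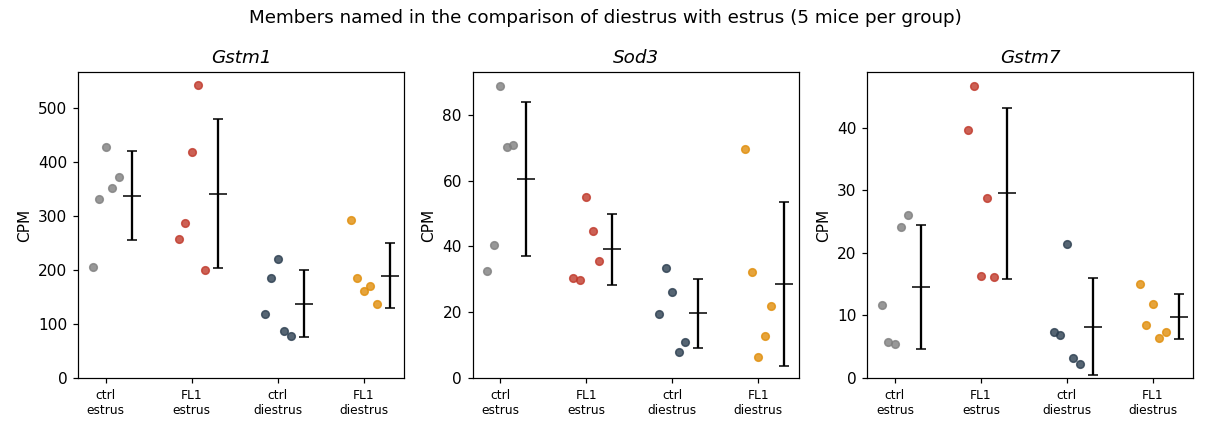
CPM of Gstm1, Sod3 and Gstm7 in every mouse (points, from left to right replicate 1 to 5) of the 4 groups, with the group mean and SD (bars, n = 5), on linear axes from 0. Gstm1 and Sod3 were lower in diestrus than in estrus in ctrl mice, and the FL1 mice in diestrus had 1 mouse far above the rest for Sod3.

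In FL1 mice 0 of 43 tested members were called between diestrus and estrus in edgeR, with 0.221% of all 13114 genes called. An unadjusted p under 0.05 was found for 10 members, 7 lower and 3 higher in diestrus (23.3% against 9.48% of all genes, 4.96% lower and 4.52% higher), and DESeq2 called 4. The lowest p-values were those of Mgst2, Gsto1 and Vnn1, with log2 fold changes of -1.83 ± 0.41 (SE), -1.01 ± 0.24 (SE) and -1.42 ± 0.34 (SE) and adjusted p-values of 0.0748, 0.0869 and 0.0869 in edgeR. The FL1 samples in estrus are those of the comparison with ctrl, in which the groups of the same 3 members did not overlap. Markers of other cells also differed between the stages in FL1 mice. All 7 luteal markers were lower in diestrus with 0 called (median log2 fold change -0.92), and their sums of 8197 to 11422 CPM in estrus and 4276 to 7754 CPM in diestrus did not overlap. All 4 surface epithelium markers were lower with 0 called (median -2.19), and 9 of 10 GC markers were higher with 0 called (median 0.27). All 5 stroma markers (median -0.55), 4 of 5 endothelium markers (-0.46) and 5 of 8 leukocyte markers (-0.61) were lower with 0 called. Of 4 tested red blood cell markers 3 were higher and 1 lower (median 0.25). Their part in the results was not tested.

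Gstm7 (chromosome 3, 107926334 to 107931817, minus strand), a mu class transferase, was found in FL1 mice at 39.7, 46.6, 16.3, 28.7 and 16.2 CPM in estrus and 15.01, 8.52, 11.9, 6.32 and 7.35 CPM in diestrus. The FL1 mice in diestrus lay below all FL1 mice in estrus. Diestrus differed by -1.59 ± 0.40 (SE) on the log2 scale, with an adjusted p of 0.112 in edgeR. In ctrl mice Gstm7 was found at 11.7, 5.75, 5.39, 24.1 and 26.0 CPM in estrus and 7.33, 6.84, 21.4, 3.28 and 2.28 CPM in diestrus, which overlapped. With Mgst2, Gsto1 and Gstm7, 3 of 43 members were lower in diestrus without overlap in FL1 mice, against 1.32% of all genes.

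The median log2 fold change of the 43 members in FL1 mice was -0.29, with 31 lower and 12 higher, beside 0.012 over all genes. Of 15 transferases listed as cytosolic, with Gstk1 counted among them, 12 were lower and 3 higher in diestrus. All 4 superoxide dismutase and catalase genes were lower, by values between -0.46 for Sod3 and -0.04 for Cat. Gpx7 went the other way, with 0.58 ± 0.24 (SE) and an adjusted p of 0.406, as did Gclc, the catalytic subunit of glutathione synthesis, with 0.59 ± 0.25 (SE) and Mgst3 with 1.38 ± 0.57 (SE). Without FL1 mouse 1 in diestrus, edgeR called 4 members, Gpx1, Gstm7, Gsto1 and Mgst2, while the calls over all genes went from 29 of 13114 to 178 of 13580. Without FL1 mouse 3 in estrus it called 1 member, Vnn1, beside 32 of 13562 genes.

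**Figure D5:**
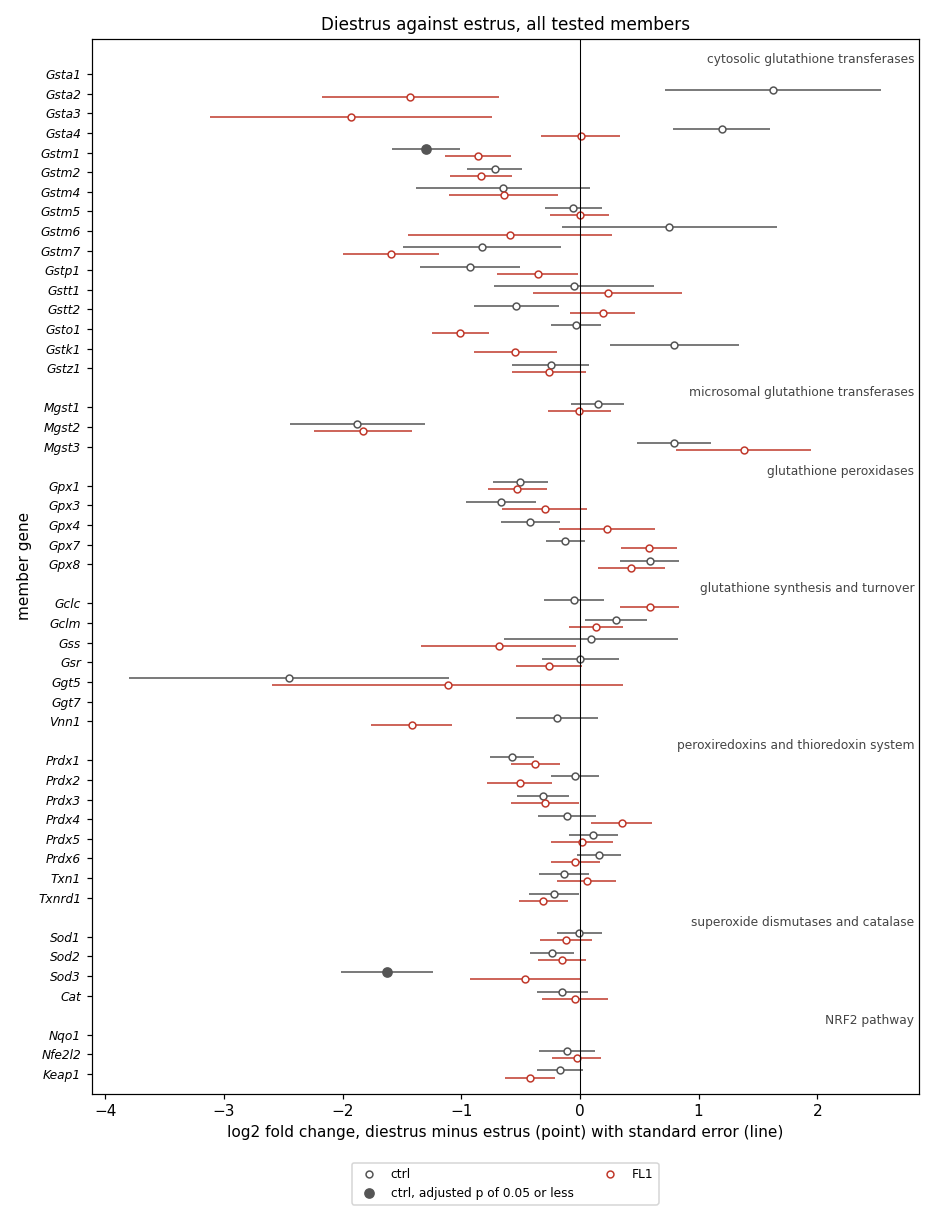
Log2 fold change of diestrus against estrus for every tested member, ordered by role, in ctrl mice (grey) and FL1 mice (red), with the standard error as a line. Most points lie left of zero in both lines, and the filled points are Gstm1 and Sod3 in ctrl mice, the called values.

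Summed over the 46 members, the SD between mice was largest in FL1 mice in diestrus. The summed level of the 46 members was 4341 to 7174 CPM in these mice, 4229 to 5585 CPM in ctrl mice in diestrus, 5797 to 7095 CPM in FL1 mice in estrus and 4914 to 6846 CPM in ctrl mice in estrus. FL1 mouse 1 in diestrus had the highest value of its group for 26 of 45 members, and FL1 mouse 4 the lowest for 22 of 45. FL1 mouse 1 was also the highest of its group in the summed markers of stroma (904 CPM), smooth muscle (1143 CPM), endothelium (83.5 CPM), leukocytes (78.9 CPM) and red blood cells (1625 CPM). Their part in the members' levels was not tested. Without this mouse 0 members were called between the lines in diestrus, as with it.

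In estrus the 7 genes of glutathione synthesis and turnover summed to 185 to 260.0 in ctrl and 321 to 809 CPM in FL1 mice. Vnn1 alone gave 54.6 to 71.4 CPM in ctrl and 106.8 to 606 CPM in FL1 mice, with 606 CPM in the highest sum. The means of Gclc, Gclm and Gsr were 72.0, 56.0 and 26.9 CPM in ctrl and 61.0, 57.0 and 45.7 CPM in FL1 mice. Gss, Ggt5 and Ggt7 had means of at most 11.8 CPM, so the gap came mostly from Vnn1 and not from the group as a whole. The sum of the 3 NRF2 pathway genes was 198 to 321 CPM in ctrl and 237 to 334 CPM in FL1 mice in estrus. The sum of the 5 glutathione peroxidases was 599 to 964 CPM and 657 to 769 CPM in the same groups. These ranges overlapped for the NRF2 pathway genes and the peroxidases.

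A further 120 genes of these pathways were chosen by function. They covered other transferases and peroxidases, supply and transport of glutathione, thioredoxins and protein repair, and partners and regulators of NRF2. Other NRF2 targets, NADPH supply and sources of reactive oxygen were covered too. Of the 120 genes 118 were matched to 1 identifier. In estrus 97 of them were tested, and 2 were called higher and 1 lower in FL1 mice, beside 0.769% of all genes called. In diestrus 94 were tested and 0 were called by edgeR, with 12 at an unadjusted p under 0.05, beside 5.56% of all genes. Over both stages 99 were tested, with 1 called higher and 3 lower, beside 1.21% of all genes.

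The 3 called in estrus belong to the lists of NADPH supply and of NRF2 partners and regulators. From the latter list only Maf was called, and the small Maf factors Mafg, Mafk and Maff were not. Maf, a large Maf factor that binds elements related to the ARE, rose in FL1 mice in estrus from 68.0 ± 20.1 CPM to 199.6 ± 86.5 CPM (SD, n = 5), with a log2 fold change of 1.55 ± 0.28 (SE), adjusted p = 0.0101 in edgeR. Me1, the cytosolic malic enzyme that makes NADPH, rose from 227 ± 92.7 CPM to 658 ± 327 CPM with 1.53 ± 0.33 (SE), adjusted p = 0.0327. Me2, the mitochondrial malic enzyme, fell from 301 ± 96.2 CPM to 134 ± 23.2 CPM with -1.17 ± 0.22 (SE), adjusted p = 0.0145. Over both stages Maf was higher with 1.43 ± 0.22 (SE), adjusted p = 0.000376, and Me2 was lower with -1.05 ± 0.15 (SE), adjusted p = 0.000105. Maf, Me1 and Me2 had also been reported as differing between the lines from these same samples before.

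Over both stages Cbs, which makes cystathionine on the way to cysteine, was lower in FL1 mice, at 24.8 CPM against 43.1 CPM in ctrl mice, with -0.83 ± 0.21 (SE), adjusted p = 0.0392 in edgeR. Txnl1, a thioredoxin-like protein, was at 592 CPM against 923 CPM with -0.62 ± 0.16 (SE), adjusted p = 0.0405. Between the stages 1 of 94 tested pathway genes was called in ctrl mice and 1 of 96 in FL1 mice, both lower in diestrus. Of all genes 1.36% and 0.221% were called. Hmox1, a haem oxygenase and standard NRF2 target, was called in ctrl mice. It fell from 73.8 ± 26.9 CPM in estrus to 27.5 ± 10.4 CPM in diestrus with -1.43 ± 0.32 (SE), adjusted p = 0.0323. Me1 fell in FL1 mice from 658 ± 327 CPM to 218 ± 56.9 CPM with -1.60 ± 0.29 (SE), adjusted p = 0.0265. Of the other NRF2 targets edgeR called 0 of 13 tested between the lines in estrus, 0 of 13 in diestrus and 0 of 14 over both stages.

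Some members are uncertain because of their sequence or their neighbours. Near-identical copies of the 3′ end were found for 13 members, among them Gsta1, Gsta2, Gstm2, Gstm6, Gstp1, Gpx4, Prdx2 and Sod1. Pooling the counts of copies changed no call. Pooling adds only reads that were counted for a copy and cannot restore reads left out for several matches. It therefore does not settle this uncertainty. Exons of Gstm5, Gstz1, Gclm, Gss, Ggt7, Prdx2, Prdx5 and Keap1 overlap those of other genes, mostly on the other strand. The strand setting of the counting was not given in the sources used here, so reads of such pairs cannot be told apart with certainty.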

How the data were processed

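The data were tables of whole-number counts of reads per gene, 1 per mouse, which the authors deposited without normalization. Libraries had been made with a kit that sequences the 3′ end of mRNA, and reads had been aligned to GRCm38 with STAR, with reads of several matches left out (23.2% to 32.8% of reads). The strand setting of the counting was not given in the sources used here.

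Counts were tested with edgeR 4.0.16 in R 4.3.3, with TMM scaling, filterByExpr (minimum count 10, minimum total 15, minimum proportion 0.7), the quasi-likelihood F test and Benjamini-Hochberg adjustment over all genes tested, and an adjusted p of 0.05 or less was called. The SE of a log2 fold change was its size divided by the square root of F. Each line comparison used the 10 mice of a stage and each stage comparison the 10 mice of a line, while the comparison over both stages and the interaction used all 20. DESeq2 1.42.0, other size factors, no filter, robust estimation, the replicate number as a block, pooled copies, 1 fit of all samples and the omission of each mouse were tried as alternatives. The model fits were tested on simulated data. Copies were sought with BLAST 2.17.0 (last 500 nt of transcripts, at least 90% identity over at least 100 nt). Gene positions are those of the GENCODE annotation of GRCm38, and promoters are those of RefSeq.

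Values of every mouse are given for members that were called, had one of the 3 lowest p-values of a comparison, had groups without overlap at an unadjusted p under 0.05, or had one of the 3 highest means. The members and the lists were chosen with earlier results of these data known. No 2 libraries were alike within sampling noise, and p-values describe the spread between mice of these closed lines.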

Additional observations from a re-analysis of the deposited data

Results flagged for a closer look

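Among 44 groups of 5 mice (11 named members in 4 groups), 8 held a mouse far from the others by Dixon's test at the 95% level, which chance gives in about 1 group of 20. The FL1 mouse with replicate number 2 in estrus was such a mouse for 3 members, with 606 CPM of Vnn1 (next 222 CPM), 190.5 CPM of Mgst2 (next 82.8 CPM) and 198 CPM of Gsto1 (next 113.1 CPM). Prdx1 reached 819 CPM in FL1 mouse 1 in diestrus, with 555 CPM in the next. Txn1 reached 784 CPM in ctrl mouse 5 in estrus, with 513 CPM in the next. Gpx7 was at 319 CPM in the same ctrl mouse, with 253 CPM in the next, and was lowest at 199.6 CPM in FL1 mouse 4 in diestrus, with 291 CPM in the next. Gstm7 reached 21.4 CPM in ctrl mouse 3 in diestrus, with 7.33 CPM in the next.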

How the results depend on the processing

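DESeq2 called 3 members in estrus (Gsto1, Mgst2 and Vnn1), 1 in diestrus (Mgst2), 4 between the stages in ctrl mice (Gstm1, Mgst2, Prdx1 and Sod3), 4 in FL1 mice (Gstm7, Gsto1, Mgst2 and Vnn1) and 3 over both stages. Without a filter on low counts edgeR called 3 in estrus, 1 in diestrus and 5 between the stages in FL1 mice. With all 20 samples in 1 fit it called 1 between the stages in ctrl mice (Gstm1) and 1 in FL1 mice (Gsto1). Leaving out 1 mouse at a time gave 1 to 2 members in estrus, 0 to 0 in diestrus, 0 to 3 between the stages in ctrl mice, 0 to 4 in FL1 mice, 2 to 3 over both stages and 0 to 0 in the interaction. Without ctrl mouse 4 in estrus Mgst2 was called in estrus (2.35, adjusted p 0.0420 in edgeR), and without ctrl mouse 5 in estrus Prdx1 was called over both stages (0.55, adjusted p 0.0419). The cause of these changes was not tested. The 26 values of named members for which alternatives were run kept their direction, and the diestrus median ranged from -0.09 to 0.18 when mice were left out. Same-numbered mice correlated between -0.12 and 0.12, with 1 of 20 pairs over 0.1 and 3 of 20 samples closest to their own number, so the numbers were not read as pairs. With the replicate block 1 member was called between the stages in ctrl mice (Gstm1) and 1 in FL1 mice (Mgst2). Over all genes, calls in estrus numbered 100 in edgeR, 425 in DESeq2, 373 without the filter and 58 with the block. Between the stages they numbered 175 in edgeR, 526 in DESeq2 and 348 without the filter in ctrl mice, and 29, 265 and 299 in FL1 mice, with 65 in 1 fit. Over both stages they numbered 181 in edgeR, 438 in DESeq2 and 319 without the filter. In diestrus they numbered 32 in edgeR, 118 in DESeq2 and 13 with the block. Of these 26 values, 26 kept their side of the threshold with other size factors, with robust estimation and with pooled copies, 24 with the block, 18 without the filter and 16 in DESeq2. In 1 fit of all samples 17 of 19 did, since the comparisons that already use all mice were not refitted. Depth limits Gsta1, Gsta3, Ggt5, Ggt7 and Nqo1, which were not tested in at least 1 comparison.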
